A study of Mus musculus with 8 samples.

Results

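The genes described here are 10 genes of amino acid supply, 8 that encode plasma membrane amino acid transporters or a transporter subunit (Slc3a2, Slc7a5, Slc7a11, Slc7a1, Slc1a4, Slc1a5, Slc38a1 and Slc38a2) and 2 that encode enzymes making asparagine (Asns) and cysteine (Cth). They were chosen by name, each was read from its brightest single-gene probe set, and all 10 were among the 18820 genes measured. RNA came from white adipose tissue of 8 male mice, 1 array each, on a mixed C57BL/6N and C57BL/6J background, after 5 weeks on the high fat diet D12492 of Research Diets. In 4 mice, called Sel1l-/- here, floxed Sel1l had been removed by a Cre recombinase driven by the adiponectin promoter, so the deletion was directed at adipocytes while the tissue also held other cells. The other 4 mice were wildtype (WT). The sources used here do not give ages, the fat depot, or whether WT mice carried the floxed allele or the Cre. Sel1l encodes an adapter of the ubiquitin ligase that clears misfolded proteins from the endoplasmic reticulum (ER), and the series title names lipoprotein lipase and triglyceride metabolism as the subject of the study.

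As background, cells take up amino acids through carriers that often work as exchangers. Slc3a2 encodes a heavy chain that brings several Slc7 light chains, which do the transport, to the cell surface. When the ER or the amino acid supply is under stress, phosphorylation of the initiation factor eIF2α favours translation of the transcription factor ATF4. With C/EBP partners, ATF4 binds composite elements in many genes of amino acid uptake and synthesis, Asns among the best known. In adipose tissue, amino acids also feed protein secretion and lipid synthesis.

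Because ATF4 is known to act through C/EBP-ATF composite elements, the promoters of these genes are shown where they hold the core letters of that element. The core searched was TGATGNAA, where N is any base, on both strands (TTNCATCA where the match lies on the other strand), from 250 bases before to 50 bases after the RefSeq gene start, in build GRCm38.p6. Of the 10 genes, 6 were in the promoter table, with 7 windows, and 3 windows held a match, against 3.97% of all 32851 windows. Slc7a5, Slc38a1, Slc1a5 and Cth had no window there and were not searched. The 3 sequences run 5′ to 3′ on the gene's strand, with the matches in capitals.
Asns, chr6:7693160-7693459, minus strand: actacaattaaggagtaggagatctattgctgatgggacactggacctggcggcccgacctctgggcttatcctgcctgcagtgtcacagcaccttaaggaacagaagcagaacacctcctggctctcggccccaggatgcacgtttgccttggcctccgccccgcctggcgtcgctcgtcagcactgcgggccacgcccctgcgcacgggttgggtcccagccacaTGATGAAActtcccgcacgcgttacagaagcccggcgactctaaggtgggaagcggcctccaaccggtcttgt
Slc7a11, chr3:50443564-50443863, minus strand: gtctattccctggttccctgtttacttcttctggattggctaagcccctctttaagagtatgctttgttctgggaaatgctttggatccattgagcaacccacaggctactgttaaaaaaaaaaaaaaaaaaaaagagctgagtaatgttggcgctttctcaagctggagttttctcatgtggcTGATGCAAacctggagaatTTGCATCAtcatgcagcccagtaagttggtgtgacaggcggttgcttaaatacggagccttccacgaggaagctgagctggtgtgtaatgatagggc
Slc1a4, chr11:20332664-20332963, minus strand: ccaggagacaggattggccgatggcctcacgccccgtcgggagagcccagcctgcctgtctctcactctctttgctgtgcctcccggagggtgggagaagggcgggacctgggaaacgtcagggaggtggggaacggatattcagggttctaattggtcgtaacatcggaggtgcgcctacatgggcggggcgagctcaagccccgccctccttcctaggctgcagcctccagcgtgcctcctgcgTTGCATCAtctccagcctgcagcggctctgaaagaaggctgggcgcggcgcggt
The Asns match began 23 bases before the start. Slc7a11 held 2 matches, on opposite strands, which began 66 and 47 bases before the start and did not overlap, and 0.0700% of all windows held 2 or more. The Slc1a4 match lay on the other strand and began 4 bases before the start. The windows of Slc7a1, Slc38a2 and Slc3a2 did not hold these letters, which says nothing of other sites or of windows farther away. A match is a string of letters and not evidence of binding. None of the 6 genes searched, with or without a match, passed the test between genotypes described next. The matches therefore cannot be set against the outcome of that test.

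The arrays were alike in scale, with medians of log2 expression of 6.05 to 6.14. The genotype labels were checked on Sel1l, which fell to 9.78 ± 0.21 in Sel1l-/- tissue, against 10.57 ± 0.07 in WT tissue (SD, n = 4 each; adjusted p = 0.0109). Adipocyte markers were bright on each array, with a mean log2 level over 9 markers of 12.30 to 12.67 in Sel1l-/- and 12.62 to 12.85 in WT tissue. Fold changes and differences are given as Sel1l-/- over or minus WT. Across the 18820 genes, 1.04% were higher and 0.685% lower in Sel1l-/- tissue at an adjusted p under 0.05 (limma), with 195 and 129 genes. After median centring of the arrays these counts were 119 and 154, so the excess of higher genes turned with the scaling. The 4 arrays per group limit the precision of every comparison.

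Among the 10 genes, 1 rose in Sel1l-/- tissue, 0 fell and 9 did not pass the threshold, beside 1.04% of all genes higher, 0.685% lower and 1.72% in either direction. The gene that rose was Slc7a5, which encodes the light chain of a large neutral amino acid exchanger that carries leucine and other essential amino acids. At an unadjusted p under 0.05 there were 4, Slc7a5, Slc1a4, Slc7a1 and Slc1a5, where 15.0% of all genes were under it. For these same genes the arrays of the genotypes did not overlap, 3 with all Sel1l-/- arrays above WT and 1 below, where 5.22% and 5.07% of all genes did so. The median log2 fold change of the 10 genes was 0.33, with a range of -0.31 to 0.96, and that of all genes was -0.0037. The titles number the replicates of each genotype 1 to 4, called mouse numbers here, and the labels do not pair them. With these numbers as a block, 2 of the 10 were higher, Slc7a5 and Slc1a4, and 0 lower. That fit called 1.90% of all genes higher and 1.95% lower. Blocking instead by the letter or by the number in the mouse IDs left 0 of the 10 called. Of all genes, the letter block called 7 higher and 13 lower, and the number block 8 higher and 3 lower. Sel1l itself also lost its call in both, so these fits say little about the 10 genes.

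**Figure D1:**
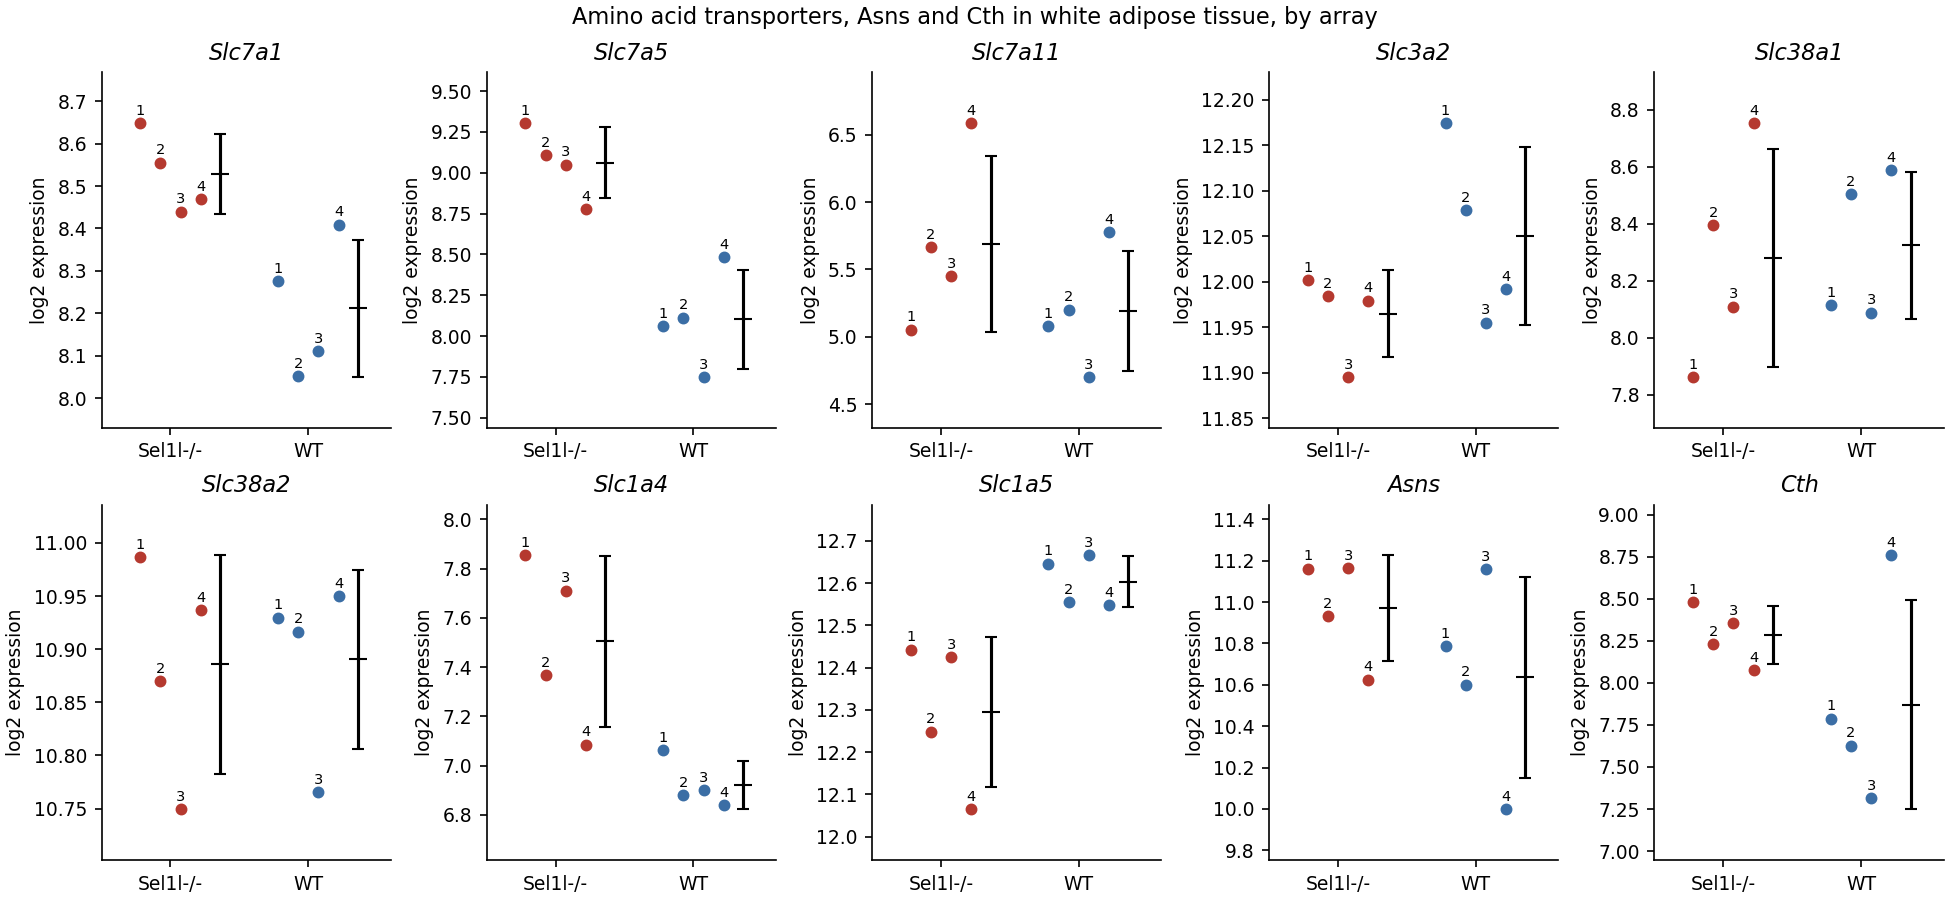
Log2 expression of the 10 genes on each array, Sel1l-/- left and WT right in every panel, with points numbered by mouse and the mean ± SD (n = 4) beside them. Each panel has its own vertical scale. The genotypes are apart in Slc7a5, Slc1a4, Slc7a1 and Slc1a5 and overlap in the other 6 genes.

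The heavy chain and its light chains were examined first. Slc7a5 had log2 values of 9.30, 9.11, 9.05 and 8.78 in Sel1l-/- mice 1 to 4, against 8.06, 8.11, 7.75 and 8.48 in WT mice 1 to 4. Each Sel1l-/- array lay above every WT array, and the nearest arrays were those of the mice numbered 4. Slc7a5 was 1.94-fold higher in Sel1l-/- tissue (log2 fold change 0.96, standard error 0.16, 95% interval 0.59 to 1.33, adjusted p = 0.0287). The difference was 1.24, 0.99, 1.30 and 0.29 in the same-numbered mice 1 to 4. The log2 fold change stayed between 0.84 and 1.09 when 1 array was left out, but the adjusted p exceeded 0.05 without any 1 of 6 arrays. It was 0.0776, 0.0974 and 0.0916 without Sel1l-/- 1, 2 and 3, and 0.0906, 0.0834 and 0.0619 without WT 1, 2 and 3. It was 0.0235 without Sel1l-/- 4 and 0.0180 without WT 4.

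Slc3a2, the heavy chain that partners Slc7a5, did not pass the test. It read 12.002, 11.98, 11.90 and 11.98 in Sel1l-/- mice 1 to 4, against 12.17, 12.08, 11.96 and 11.99 in WT mice 1 to 4. The values of the genotypes overlapped within a narrow range, although Slc3a2 was lower in 4 of 4 same-numbered pairs. Its log2 fold change was -0.09 (standard error 0.06, 95% interval -0.23 to 0.06, adjusted p = 0.606). Its mean lay at percentile 98.8 of the genes, and whether differences are compressed that high on the scale was not tested.

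Slc7a11, the light chain of the cystine and glutamate exchanger, varied widely between mice of one genotype. It read 5.05, 5.66, 5.45 and 6.59 in Sel1l-/- mice 1 to 4, against 5.08, 5.20, 4.70 and 5.77 in WT mice 1 to 4. In both genotypes the mouse numbered 4 was highest, and the other Sel1l-/- values lay within the WT range. Its log2 fold change was 0.50 (standard error 0.33, 95% interval -0.26 to 1.26, adjusted p = 0.544), and it was 0.20 without Sel1l-/- 4. Of the other measured light chains known to pair with Slc3a2, named here for that role after their values were seen, Slc7a6 differed by -0.12 on the log2 scale (adjusted p = 0.619) and Slc7a8 by 0.21 (adjusted p = 0.539).

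Slc7a1 encodes a carrier of the cationic amino acids arginine and lysine. It read 8.65, 8.56, 8.44 and 8.47 in Sel1l-/- mice 1 to 4, against 8.27, 8.05, 8.11 and 8.41 in WT mice 1 to 4. The genotypes did not overlap, but WT 4 lay just below the lowest Sel1l-/- array. On the log2 scale it was higher by 0.32 (standard error 0.09, 95% interval 0.11 to 0.52), or 1.25-fold, and the adjusted p of 0.142 missed the threshold. In the pairs of mice with one number, Slc7a1 was higher by 0.06 to 0.50, and the shared sign follows from the lack of overlap.

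The neutral amino acid carriers Slc1a4 and Slc1a5 belong to one family and had estimates of opposite sign. Slc1a4, which carries alanine, serine and cysteine, read 7.85, 7.37, 7.71 and 7.08 in Sel1l-/- mice 1 to 4, against 7.06, 6.88, 6.90 and 6.84 in WT mice 1 to 4. The WT arrays were close together and the Sel1l-/- arrays spread above them, with Sel1l-/- 4 just over the highest WT array. Between genotypes it differed by 0.58 on the log2 scale (standard error 0.16, 95% interval 0.23 to 0.94), with an adjusted p of 0.122. It passed with the mouse numbers as a block (adjusted p = 0.0457) and without Sel1l-/- 4 (log2 fold change 0.72, adjusted p = 0.0327).

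Slc1a5, the exchanger best known for glutamine, read 12.44, 12.25, 12.43 and 12.06 in Sel1l-/- mice 1 to 4, against 12.65, 12.55, 12.67 and 12.55 in WT mice 1 to 4. Each Sel1l-/- array lay below every WT array. Its log2 fold change was -0.31 (standard error 0.09, 95% interval -0.52 to -0.10), a level 1.24-fold lower, with an adjusted p of 0.153. That it was also lower in each same-numbered pair follows from this lack of overlap. The mean of Slc1a5 lay at percentile 99.5 of the genes, and compression of differences there was not tested either. All 9 measured adipocyte markers, all 10 endothelial markers and all 6 mesothelial markers had negative log2 fold changes as well. Their medians were -0.12, -0.36 and -0.37, and 0, 1 and 0 of them passed the threshold. At an unadjusted p under 0.05 there were 2, 10 and 2, where 15.0% of all genes were under it. For 2, 6 and 1 of them all Sel1l-/- arrays lay below WT, where 5.07% of all genes did so. The mean endothelial marker level was 9.57 to 9.88 in Sel1l-/- and 10.08 to 10.25 in WT tissue. Of 9 fibroblast and progenitor markers, 7 were negative, with a median of -0.08 and 0 past the threshold. In whole tissue, fewer cells of a type and less RNA per cell cannot be told apart, and the part of cell composition in the Slc1a5 values was not tested.

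The sodium-coupled carriers Slc38a1 and Slc38a2, which take up glutamine, alanine and other small neutral amino acids, overlapped between the genotypes. Slc38a2 read 10.99, 10.87, 10.75 and 10.94 in Sel1l-/- mice 1 to 4, against 10.93, 10.92, 10.77 and 10.95 in WT mice 1 to 4. The ranges of the genotypes nearly coincided. Its log2 fold change was -0.0047 (standard error 0.07, 95% interval -0.17 to 0.16, adjusted p = 0.985). Slc38a1 read 7.86, 8.40, 8.11 and 8.75 in Sel1l-/- mice 1 to 4, against 8.12, 8.50, 8.09 and 8.59 in WT mice 1 to 4. The spread within a genotype was far wider than the difference of their means, with a log2 fold change of -0.04 (standard error 0.20, 95% interval -0.50 to 0.41, adjusted p = 0.947). Slc38a1 was the 1 gene of the 10 with a second probe set, which was dimmer and averaged 5.43 ± 0.20 in Sel1l-/- and 5.41 ± 0.26 in WT tissue (SD, n = 4 each).

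**Figure D2:**
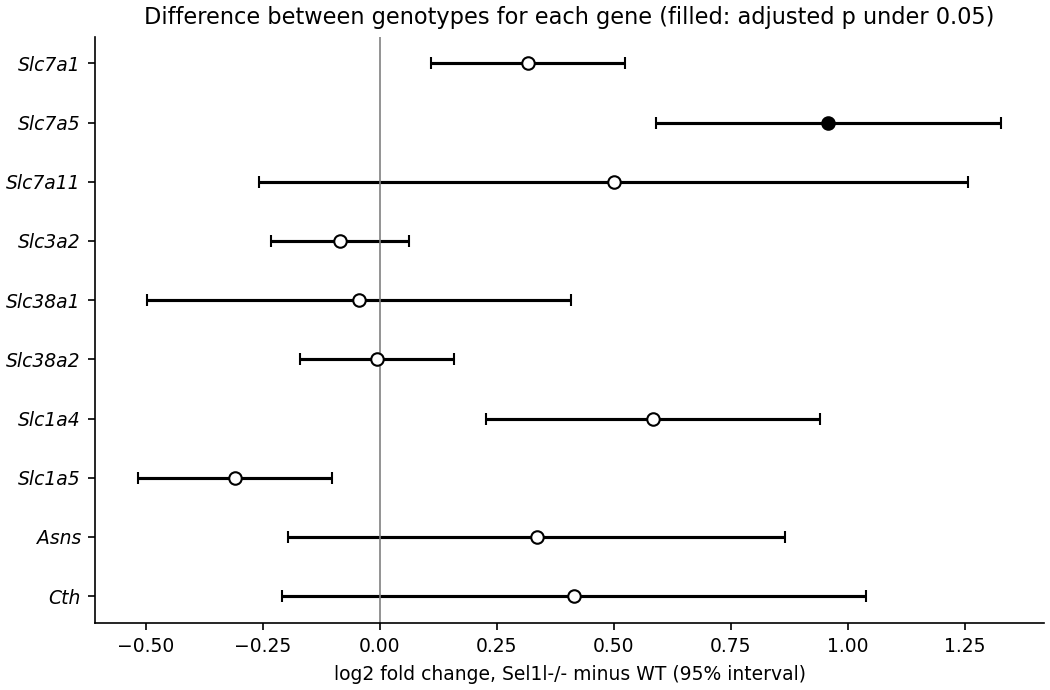
Log2 fold change of each gene, Sel1l-/- minus WT, with its 95% interval from limma (n = 4 each). The filled point, Slc7a5, is the gene past an adjusted p of 0.05. The intervals of Slc7a1, Slc1a4 and Slc1a5 leave out 0 before adjustment, and those of the other 6 genes include it.

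Both enzymes had positive estimates that did not pass the test. Asns encodes asparagine synthetase, which makes asparagine from aspartate with glutamine as nitrogen donor. It read 11.16, 10.93, 11.16 and 10.63 in Sel1l-/- mice 1 to 4, against 10.79, 10.60, 11.16 and 9.998 in WT mice 1 to 4. WT 3 was as high as the highest Sel1l-/- arrays and WT 4 was the lowest array of all. Asns differed by 0.34 on the log2 scale (standard error 0.23, 95% interval -0.20 to 0.87, adjusted p = 0.567), and by 0.12 without WT 4 (adjusted p = 0.773). The difference was above 0 in each same-numbered pair, 0.38, 0.33, 0.0053 and 0.63 in mice 1 to 4.

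Cth encodes cystathionine gamma-lyase, which releases cysteine in the last step of transsulfuration. It read 8.48, 8.23, 8.36 and 8.08 in Sel1l-/- mice 1 to 4, against 7.79, 7.63, 7.31 and 8.76 in WT mice 1 to 4. The Sel1l-/- arrays were close together and above 3 of the 4 WT arrays, while WT 4 was higher than any of them. Cth differed by 0.41 on the log2 scale (standard error 0.27, 95% interval -0.21 to 1.04, adjusted p = 0.542). It was 0.71 without WT 4 (adjusted p = 0.0507). Leaving out both mice numbered 4, a choice made after their values were seen, gave 0.78 (adjusted p = 0.041).

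WT 4 and Sel1l-/- 4 also had the highest levels of macrophage markers in their genotypes. The mean log2 level of 12 markers was 9.87, 10.45, 10.30 and 11.05 in Sel1l-/- mice 1 to 4, against 9.41, 10.36, 9.30 and 10.59 in WT mice 1 to 4. The genotypes overlapped. Of these markers 12 had positive log2 fold changes, with a median of 0.42, and 0 passed the threshold, and 0 lay below the lower quartile of the genes by mean level. Within each genotype the 4 arrays stood in the same order for Slc7a11, and for Slc38a1, as for the macrophage markers. For Slc1a5 they stood in the reverse order in both genotypes. Asns was in the reverse order in WT mice, and in Sel1l-/- mice too but for Sel1l-/- 1 and 3, whose Asns values of 11.16 were nearly equal. Slc7a5 stood in the same order as the macrophage markers in WT mice only, and Slc1a4 and Cth in the reverse order in Sel1l-/- mice only. How many of all genes follow such orders was not counted. Macrophages are known to express Slc7a11, and the part of macrophage number in these values cannot be told apart from RNA per cell.

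A fit that took the mean of the macrophage markers as a covariate was added after these levels were seen. In it the log2 fold change of Slc7a11 was 0.07 (adjusted p = 0.890), that of Asns was 0.63 (adjusted p = 0.0471) and that of Slc1a4 was 0.74 (adjusted p = 0.0315). Slc7a5 stayed past the threshold at 0.91 (adjusted p = 0.0414). Slc1a5 was at -0.22 (adjusted p = 0.177) and Cth at 0.26 (adjusted p = 0.714). Slc38a1 was at -0.31 (standard error 0.09, adjusted p = 0.130), against -0.04 without the covariate.

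**Figure D3:**
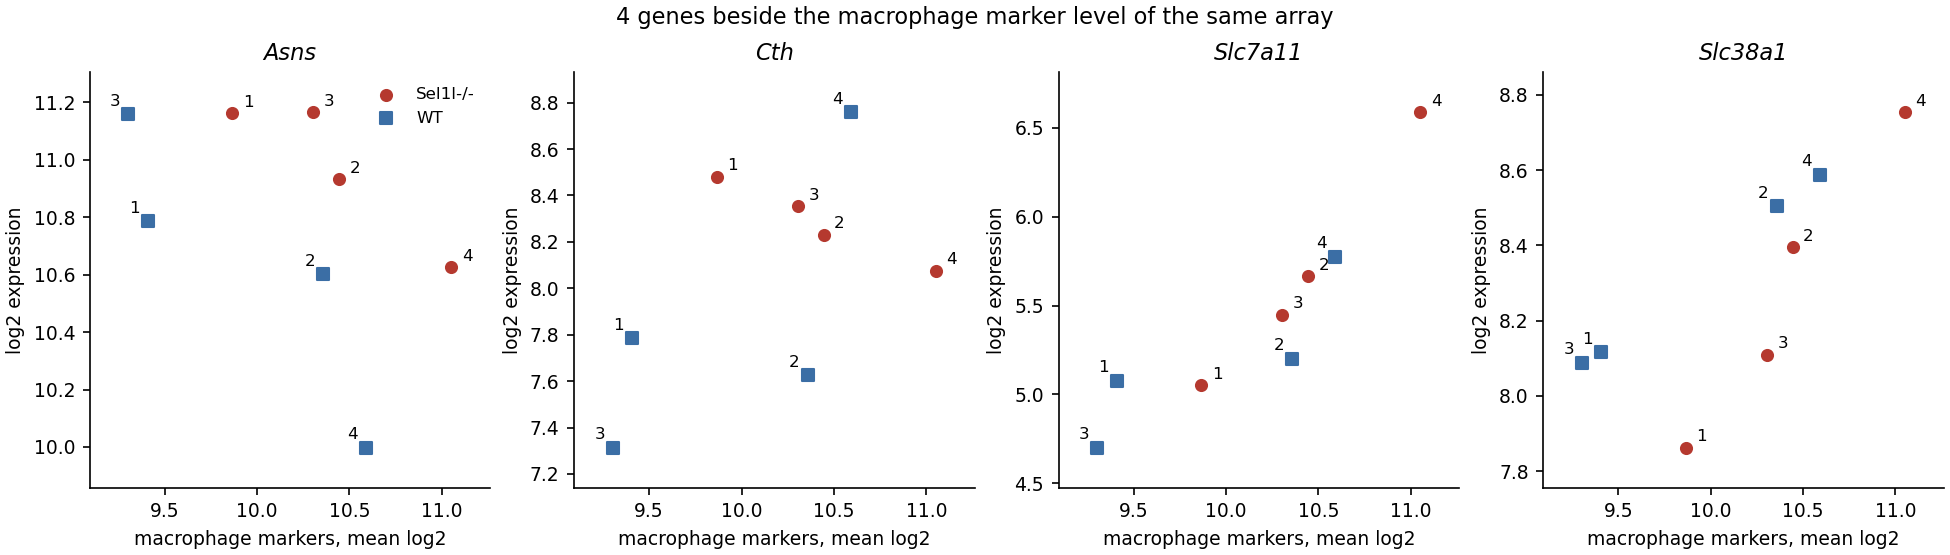
Log2 expression of Asns, Cth, Slc7a11 and Slc38a1 (vertical axes) beside the mean log2 level of 12 macrophage markers (horizontal axes) on the same array, circles Sel1l-/- and squares WT, numbered by mouse. Slc7a11 and Slc38a1 are highest and Asns lowest in the mouse numbered 4 of each genotype, and Cth is highest in WT 4 but lowest in Sel1l-/- 4.

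The labels give each mouse a code with a letter and a number, and the sources used here do not say what they mean. The letter F holds WT 4 and Sel1l-/- 1 and 2, and is the 1 letter with both genotypes. Within it the difference of Slc7a5, Sel1l-/- minus WT, was 0.72, and within the code numbers 5, 7 and 9 it was 0.78, 0.93 and 1.36. With the letter as a block Slc7a5 had an adjusted p of 0.286, and with the code number one of 0.107. For Slc1a4 the difference was 0.77 within letter F and 0.76, 0.59 and 0.47 within the code numbers 5, 7 and 9. For Slc1a5 it was -0.20 within letter F and -0.17, -0.30 and -0.42 within the code numbers. Asns differed by 1.05 within letter F, which rests on the low WT 4, but by -0.23 within code number 9. Cth and Slc7a11 differed by -0.40 and -0.42 within letter F, opposite to their overall estimates. These values also rest on WT 4, the 1 WT array of letter F and the highest WT array for both genes.

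To set partner genes against each other, their ratio was taken within each array and scaled to a mean of 0 in WT mice. These 4 ratios were chosen by function after the values were seen, so they are given as a description with no test. The log2 ratio of Slc7a5 over Slc3a2 was 1.25, 1.07, 1.10 and 0.75 in Sel1l-/- mice 1 to 4, against -0.17, -0.02, -0.26 and 0.44 in WT mice 1 to 4. The ratio was 2.06-fold higher in Sel1l-/- tissue, above every WT array in 4 of 4. Slc7a5 alone lay above WT on all 4 arrays and Slc3a2 varied little, so this separation largely restates the Slc7a5 values. The log2 ratio of Slc1a4 over Slc1a5 was 1.10, 0.80, 0.97 and 0.70 in Sel1l-/- mice, against 0.10, 0.0078, -0.08 and -0.02 in WT mice. It was 1.86-fold higher in Sel1l-/- tissue, above every WT array in 4 of 4. Since Slc1a4 alone lay above and Slc1a5 alone below WT on all 4 arrays, that separation follows from the values already given. Slc7a11 over Slc3a2 differed by 0.59 and Slc38a1 over Slc38a2 by -0.04, and in both the genotypes overlapped.

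**Figure D4:**
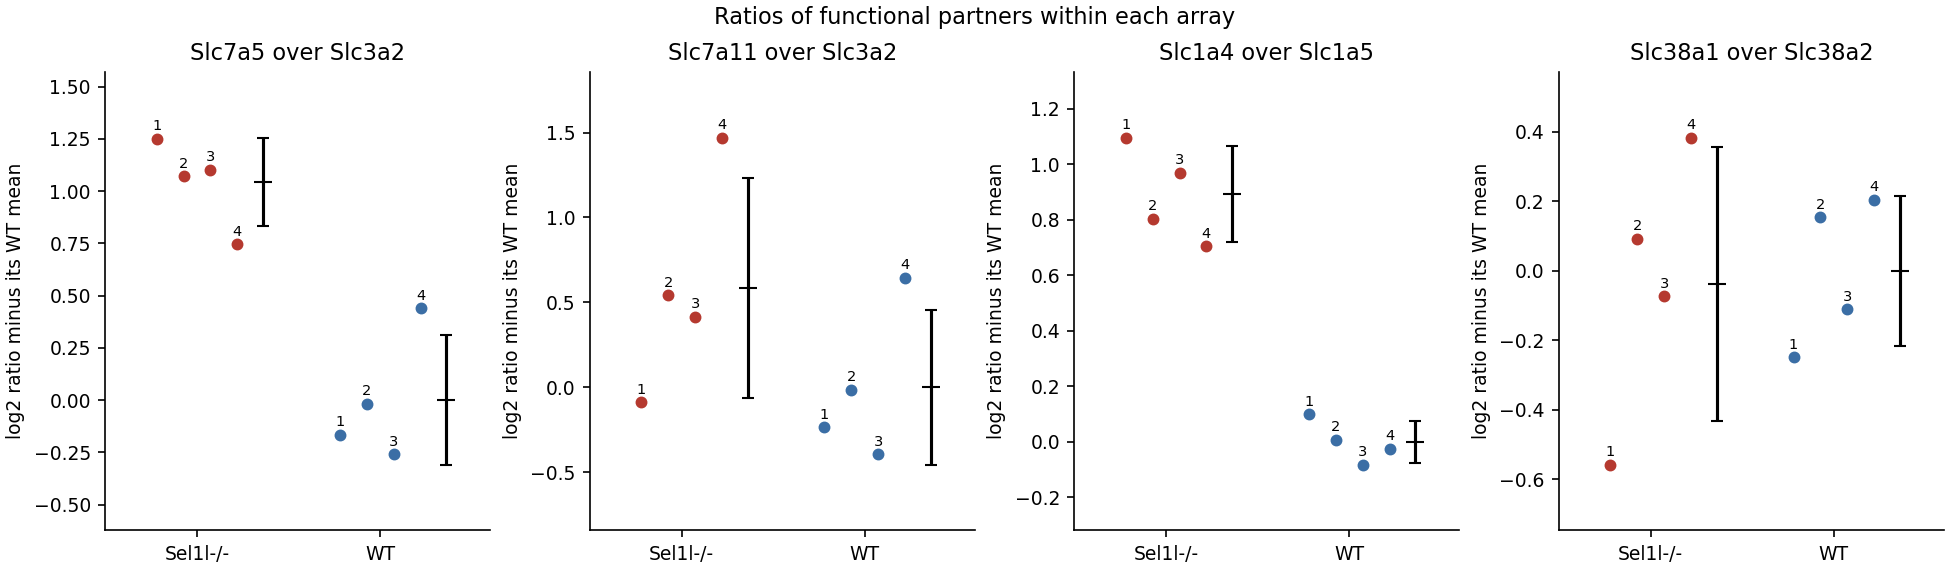
Log2 ratio of functional partners within each array minus its mean in WT mice, Sel1l-/- left and WT right, with points numbered by mouse and the mean ± SD (n = 4). Slc7a5 over Slc3a2 and Slc1a4 over Slc1a5 are higher on all 4 Sel1l-/- arrays than on any WT array, and the other 2 ratios overlap.

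The other genes of amino acid supply were read from 5 lists. Their counts stand beside 1.04% of all genes higher, 0.685% lower and 15.0% with an unadjusted p under 0.05. Of 17 other measured plasma membrane amino acid transporters, 0 rose and 0 fell in limma's adjusted test, 1 had an unadjusted p under 0.05, and 12 had negative log2 fold changes (median -0.10). Slc1a3, a glutamate and aspartate carrier, had the smallest p. It read 9.92, 9.63, 9.81 and 8.79 in Sel1l-/- mice 1 to 4, against 10.39, 10.11, 10.83 and 9.85 in WT mice 1 to 4, a log2 difference of -0.76 (adjusted p = 0.252). With the mouse numbers as a block its adjusted p was 0.0340. With the code letter as a block the difference was -0.07 (adjusted p = 0.978), with the code number -0.72 (adjusted p = 0.430) and with the macrophage covariate -0.39 (adjusted p = 0.201). Slc36a2, a proton-coupled carrier of glycine, alanine and proline, differed by -0.34 (adjusted p = 0.385).

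Of 19 measured enzymes of non-essential amino acid synthesis and exchange, 0 rose and 1 fell (median -0.0025), and 7 had an unadjusted p under 0.05. Gpt2, the mitochondrial alanine aminotransferase, which is also known as an ATF4 target, had log2 values of 9.26, 9.40, 9.63 and 9.32 in Sel1l-/- mice 1 to 4, against 10.41, 10.17, 10.60 and 9.90 in WT mice 1 to 4. Every Sel1l-/- array lay below every WT array, and the level was 1.82-fold lower (log2 fold change -0.87, standard error 0.15, adjusted p = 0.0304). When 1 array was left out the call held without WT 4 alone (adjusted p = 0.0180) and was lost without each of the other 7 (up to 0.102, without Sel1l-/- 2). Among the serine pathway enzymes, named here after their values were seen, Phgdh, which makes the first committed step, differed by -0.45 on the log2 scale (adjusted p = 0.217), and Psat1, the aminotransferase of the next step, by 0.24 (adjusted p = 0.355).

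Of 17 measured genes of transsulfuration, cysteine and glutathione metabolism, 1 rose and 0 fell (median -0.04), and 5 had an unadjusted p under 0.05. Chac1, which degrades glutathione and is an ATF4 target, rose to 8.93, 8.48, 9.05 and 8.52 in Sel1l-/- mice 1 to 4, against 7.86, 7.80, 8.17 and 7.51 in WT mice 1 to 4. The genotypes did not overlap, and the level was 1.88-fold higher (log2 fold change 0.91, standard error 0.17, adjusted p = 0.0404). Median centring of the arrays gave an adjusted p of 0.0511, which missed the threshold. When 1 array was left out the call held without WT 3 and without Sel1l-/- 4, and was lost for the other 6 (highest 0.114, for WT 1). Cdo1, which oxidises cysteine, was named after its value was seen and differed by -0.53 on the log2 scale (adjusted p = 0.135).

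The arm of the stress response that runs through ATF4 held 20 measured genes, of which 4 rose and 0 fell (median 0.31). Ddit3, Atf5 and Aars were not measured. In this list 10 genes had an unadjusted p under 0.05, where 15.0% of all genes were under it. For 9 genes all Sel1l-/- arrays lay above WT, where 5.22% of all genes did so. Mthfd2, named here after its value was seen, was among these 9 and missed the threshold (log2 fold change 1.18, adjusted p = 0.0595). Atf4 itself had log2 values of 8.94, 8.77, 8.91 and 8.53 in Sel1l-/- mice 1 to 4, against 8.28, 7.96, 7.92 and 8.10 in WT mice 1 to 4. It was 1.65-fold higher, with no overlap (log2 fold change 0.72, standard error 0.11, adjusted p = 0.0231). Its call held without WT 1, WT 4 or Sel1l-/- 4 and was lost without any 1 of the other 5 arrays (up to 0.0818, without Sel1l-/- 3). Trib3, Nupr1 and Ppp1r15a were the other 3 that rose, with log2 fold changes of 3.01, 0.87 and 0.87. Trib3 and Nupr1 kept their calls when any 1 array was left out, and Ppp1r15a lost its call without WT 1, WT 2 or Sel1l-/- 3 (adjusted p = 0.0533, 0.0539 and 0.0561). In estimated change Slc7a5 was closer in size to Atf4 and Nupr1 than to Trib3, which read 10.12, 9.28, 9.58 and 8.58 in Sel1l-/- mice 1 to 4. With the letter or the number of the code as a block, Gpt2, Chac1, Atf4, Trib3, Nupr1 and Ppp1r15a all lost their calls, as did Slc7a5 and Sel1l itself (adjusted p = 0.151 and 0.0813 for Sel1l). Of the 21 measured genes that relay amino acid supply to the kinase mTOR, 0 rose and 0 fell in limma's adjusted test. An unadjusted p under 0.05 was found for 4 of these 21, beside 15.0% of all genes. In the mTOR list the smallest p were those of Rraga, a Rag GTPase (log2 fold change 0.30, adjusted p = 0.0664), and Tsc2, an inhibitor of the pathway (-0.21, adjusted p = 0.148).

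**Figure D5:**
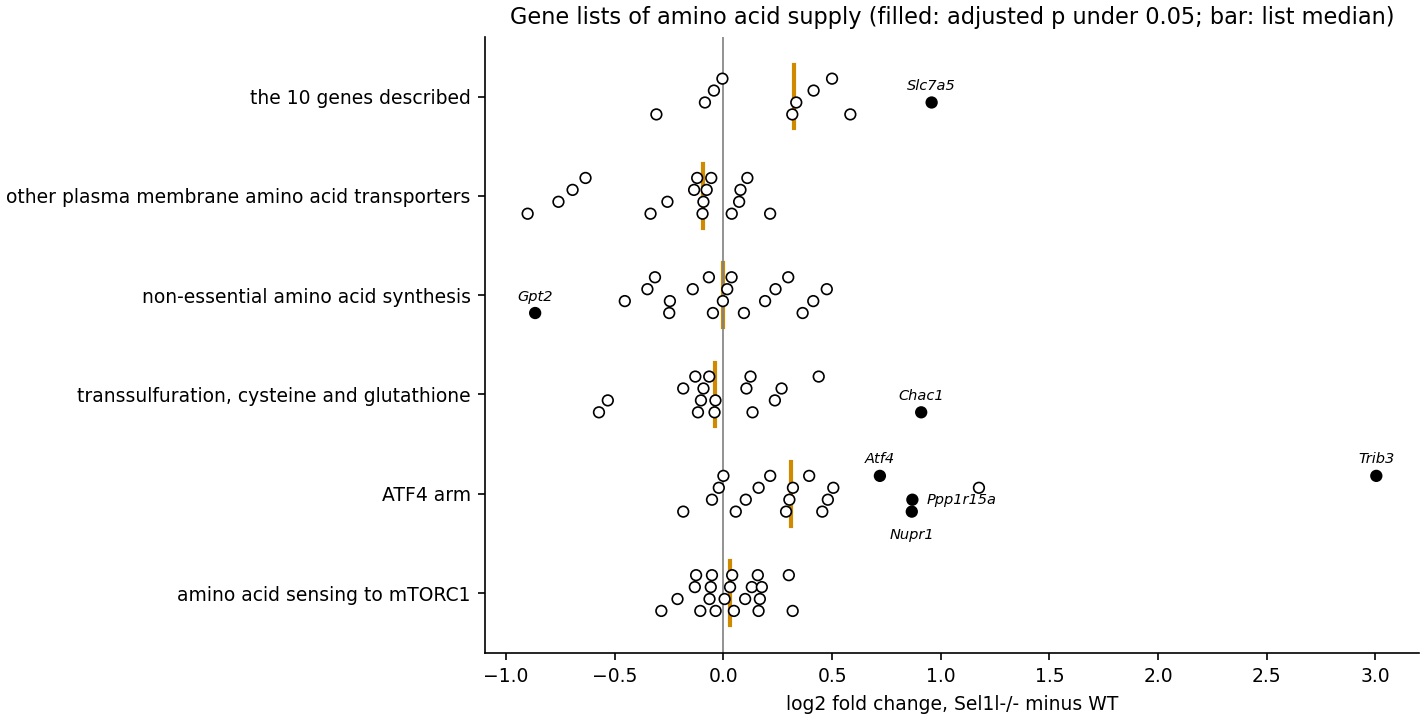
Log2 fold change of each measured gene, Sel1l-/- minus WT, in the 10 genes described and in 5 other lists. Filled points passed an adjusted p of 0.05 and carry their names, and the bars are list medians, 0.33 for the 10 genes, 0.31 for the ATF4 arm and between -0.10 and 0.03 for the other 4 lists.

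The genes whose profile over the 8 arrays was most like that of Slc7a5 were named by the smallest root mean square distance between deviations from the gene's own mean. They were 1110008P14Rik (distance 0.130 on the log2 scale), Cyp2c23, a cytochrome P450 (0.133), and Tafa5, a secreted protein (0.135), where the median distance of all other genes was 0.548. Their log2 fold changes were 1.11, 0.94 and 0.87, which the choice of a profile like that of Slc7a5 largely sets. The distance takes in both the difference between genotypes and the spread within them. As with Slc7a5, the mice numbered 4 lay nearest to each other for each of them. Cyp2c23 read 6.86 in Sel1l-/- 4 and 6.57 in WT 4, while the other arrays were 6.999 to 7.32 in Sel1l-/- and 5.75 to 6.10 in WT tissue.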

How the data were processed

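White adipose tissue of 8 mice was measured on arrays with biotin-labelled RNA, 1 per mouse. Per their range, the deposited values are log2 expression, and they were made by the authors with RMA, per the submitters' processing notes. RMA corrects background, equalizes array distributions and summarizes probes, so a shift of most transcripts would not show and dim or saturated differences are compressed. Of 35556 probe sets, 21218 carried 1 gene symbol in the platform annotation, 1881 several and 12457 none listed. The brightest probe set per gene left 18820 genes. The test between genotypes was that of limma 3.58.1, run in R 4.3.3 (lmFit and eBayes; prior degrees of freedom 2.60). Its two-sided p-values were adjusted over all 18820 genes by Benjamini-Hochberg and called under 0.05. The labels call the samples separate mice. The script was tested on simulated data. Counts and figures were made in Python 3.11.15 with matplotlib 3.10.9 and pandas 2.3.3.

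The members and lists were chosen with earlier results of these data known. Named genes were the 10 members, Sel1l, Adipoq, up to 6 members past the threshold per list or else 2 with the smallest p, and the 3 genes most like Slc7a5. Other names are marked as chosen after their values were seen. Both groups carry replicate numbers 1 to 4 in their titles, called mouse numbers here. Between mice of one number, deviations from the group mean had correlations of 0.518, 0.107, 0.363 and 0.524 over all genes, so the numbers were taken as pairs from the data. Different numbers reached 0.328 (Sel1l-/- 1 with WT 3) and 0.327 (Sel1l-/- 4 with WT 2), above the mice numbered 2. As the pairing was read from these same arrays, fits with it as a block are no independent support. The labels do not say what a number shares. The main fit had no block. Promoter sequences are from RefSeq, GRCm38.p6, the assembly that also supplied gene names. Alternatives were array centring, blocks, array weights, an intensity trend with robust prior, probe set means, leaving out the dimmest 25% of genes, leaving out each array, and 2 added after seeing the data.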

Additional observations from a re-analysis of the deposited data

Results flagged for a closer look

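Of the 50 groups of 4 arrays examined (25 genes named by rule, 2 genotypes), 1 held an array far from the rest, where chance flags about 1 group in 20. Rraga, a Rag GTPase of amino acid sensing, read 8.41 in WT 4, below the nearest WT array at 8.53, a gap of 0.850 of the range of the WT arrays. The same mouse was the lowest WT array for Asns, Slc1a4 and Slc1a5 and the highest for Cth, Slc7a5, Slc7a11, Slc7a1, Slc38a1 and Slc38a2, and in these genes its gap was a smaller share of the range.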

How the results depend on the processing

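Of the 10 genes, 1 was higher and 0 lower. The number higher became 2 with the replicate block (Slc7a5 and Slc1a4), 0 with the code letter and 0 with the code number as a block, 2 without the mice numbered 4 of both genotypes, 3 with the macrophage covariate, and 0 to 2 when 1 array was left out. Leaving out both mice numbered 4 and the covariate were chosen after seeing the data. The number lower was 0 in every alternative run. Over all genes, 195 higher and 129 lower became 119 higher with centred arrays, 358 and 367 with the replicate block, 7 and 13 with the letter, 8 and 3 with the code number, 347 and 219 with array weights, 314 and 223 with the covariate, and 66 to 244 and 31 to 140 when 1 array was left out. Fits with a block or without an array have fewer residual degrees of freedom; otherwise the cause was not tested. With the letter block the log2 fold changes of Slc7a11, Cth and Slc3a2 turned to -0.42, -0.40 and 0.00075. That block compares the genotypes within letter F alone, where WT 4 is the 1 WT array. Leaving out 1 array gave -0.20 to 0.10 for Slc38a1 and -0.046 to 0.041 for Slc38a2. Adipoq, the gene whose promoter drove the Cre, was 1.48-fold lower in Sel1l-/- tissue, with no overlap (log2 fold change -0.56, limma adjusted p = 0.0753). The replicate block gave Adipoq an adjusted p of 0.0204. Of the genes named by rule, it changed the call of Slc1a4, Slc1a3 and Adipoq and no other. Without arrays' raw intensities, signal over background could not be judged for the dimmest gene, Slc7a11.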
